A study of Mus musculus with 14 samples.

Results

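The ATP-binding cassette (ABC) transporters are membrane pumps that hydrolyse ATP to move bile salts, lipids, drug conjugates, haem precursors and peptides. The members described here are the protein-coding genes whose symbol is Abc followed by a subfamily letter from a to g and a number, and 50 of the 21870 protein-coding genes in the count tables met that rule. They comprised 16 members of subfamily A, 10 of B, 10 of C, 4 of D, 1 of E, 3 of F and 6 of G. At least 1 read was counted in some library for 46 members, and 39 had enough reads to be tested together with the other genes, 14638 in all.

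The RNA came from the left liver lobe of 14 untreated mice aged 20 weeks, 1 library per mouse, sequenced as total RNA. All of them carried Tet2fl/fl, floxed alleles of the DNA demethylase gene Tet2. The 4 controls were healthy littermates without Cre (Tet2fl/fl cre-). The 5 mice labelled asymptomatic were Tet2fl/fl vav cre+, and the 5 AIH mice were Tet2fl/fl vav cre+ animals that had developed spontaneous autoimmune hepatitis. The Vav promoter drives Cre mainly in blood-forming cells, so the hepatocytes that carry most of the transporters below are not the cells aimed at. Asymptomatic and AIH mice share the genotype and differ by disease state. The labels do not give the sex of the animals. Xist and 4 Y-linked genes separated the libraries without overlap into 2 female and 2 male controls, 5 male asymptomatic mice, and 4 female and 1 male AIH mouse, the male being AIH 4.

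In the liver, ABC proteins on the canalicular membrane of the hepatocyte push bile salts, phospholipid, sterols and conjugated bilirubin into bile. Relatives on the basolateral membrane, which faces the blood, export conjugates and bile acids back to the circulation and are known as an overflow route in cholestasis. Further members load lipid onto lipoproteins, sit in mitochondrial, lysosomal and peroxisomal membranes, or lack membrane domains and act in translation.

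Stretches of upstream sequence are printed here for genes described below: the interval between the RefSeq start sites of Abcg5 and Abcg8, and the upstream windows of Abcb4 and Abcc4. A link between these sequences and the levels of the genes was not tested. Sequence and start sites are RefSeq's on GRCm38.p6, whose table held a start for 38 of the 50 members. Capitals mark matches to any of 5 motifs searched on both strands (the nuclear receptor motif AGGTCA, the antioxidant response core TGACNNNGC, the E-box CACGTG, the D-box TTATGNAA and the TATA box TATAAA). The Abcg5-Abcg8 interval lies at chr17:84683012-84683120 on the plus strand, 109 bases between the 2 start sites. The Abcb4 window lies at chr5:8893471-8893716 on the plus strand, and the Abcc4 window at chr14:118706220-118706469 on the minus strand.
Abcg5-Abcg8 interval: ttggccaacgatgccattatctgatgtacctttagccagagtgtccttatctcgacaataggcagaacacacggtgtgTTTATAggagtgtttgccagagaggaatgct
Abcb4 upstream window: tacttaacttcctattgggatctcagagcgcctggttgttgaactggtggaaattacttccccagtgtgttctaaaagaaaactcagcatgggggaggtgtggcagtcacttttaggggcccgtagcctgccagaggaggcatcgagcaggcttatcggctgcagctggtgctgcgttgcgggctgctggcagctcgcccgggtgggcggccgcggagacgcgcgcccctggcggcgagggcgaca
Abcc4 upstream window: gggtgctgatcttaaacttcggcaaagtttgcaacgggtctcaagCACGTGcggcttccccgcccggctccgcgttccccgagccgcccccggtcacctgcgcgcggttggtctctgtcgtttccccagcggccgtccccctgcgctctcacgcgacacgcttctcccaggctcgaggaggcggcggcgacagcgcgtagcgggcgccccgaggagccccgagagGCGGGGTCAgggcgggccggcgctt
The interval held 1 TATAAA match, on the strand that reads toward Abcg5. The same motif was present in 5.90% of windows of that length before the 32851 RefSeq start sites. The Abcc4 window held 1 CACGTG match, present in 6.02% of windows of its length, and 1 TGACNNNGC match, present in 10.2%, and the 2 matches did not overlap. None of the 5 motifs was found in the Abcb4 window. A match is a run of letters and not a measured binding site.

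Between 16.0 and 18.9 M reads per library were assigned to genes. The share of reads that did not align was 4.17 to 4.89% in the controls, 4.93% in asymptomatic 2 and higher in the other asymptomatic livers, up to 9.27%, and 3.23 to 6.54% in AIH, highest in AIH 4. Tet2 itself stood at 8.53 to 11.98 counts-per-million (CPM) in the controls, 4.77 to 9.24 in the asymptomatic and 7.34 to 15.4 in the AIH livers. These ranges overlapped, and the cause was not tested. Summed over 8 hepatocyte markers the level was 111900 to 155200 CPM in the controls and 89690 to 171800 in AIH, and none of the 8 was called between them, while 2 of the 8 fell in AIH against asymptomatic livers. The 6 leukocyte markers all rose in AIH, their sum going from 168 to 241 CPM in the controls and 172 to 209 in the asymptomatic livers to 677 to 1149. The sum of 8 monocyte and macrophage markers went from 212 to 440.5 and from 243 to 301 to 832 to 1733 CPM, and 7 of the 8 rose. All tested T cell (6), B cell (5), granulocyte (8) and proliferation (6) markers rose in AIH against control, as did 5 of 6 Kupffer cell, 4 of 6 erythroid, 3 of 7 stellate cell and fibroblast, 2 of 6 endothelial and 1 of 7 cholangiocyte markers. Beside these counts, 15.6% of all genes rose. Genes such as Mpo and Camp, at most 0.065 and 0.13 CPM in any control or asymptomatic liver, passed the count filter only through the AIH livers. The rise of such genes adds no support of its own. Of 7 female-biased liver genes 0 were called against control and 7 rose against asymptomatic livers, and of 7 male-biased ones 0 were called and 2 fell. In whole tissue, a smaller share of hepatocytes and less RNA per hepatocyte cannot be told apart, and the part of the infiltrating cells in the family's results was not tested.

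Levels differed widely within the family. Per kilobase of exon, Abcd3 was highest in the controls at 153 CPM per kb, followed by Abcb11 at 117, Abcc2 at 80.2, Abcc3 at 68.4, Abca6 at 64.4 and Abcb4 at 46.1. In AIH the same scale gave Abcb11 87.7, Abcd3 77.3, Abcc2 38.6, Abcc3 33.5, Abca6 30.7 and Abcb4 19.4. Exon length is the union over annotated isoforms, which understates the level of genes with long minor isoforms.

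In AIH against control livers, 5 of the 39 tested members rose and 6 fell (edgeR quasi-likelihood test, Benjamini-Hochberg adjusted p under 0.05 over 14638 genes). Abcg1, Abcg3, Abcc1, Abcc5 and Abcb1b rose, and those that fell included Abcc2, Abcb4, Abcc3, Abca6 and Abcb8. That is 28.2% of the tested members, beside 21.7% of all genes tested, of which 15.6% rose and 6.08% fell. The median log2 fold change was -0.39 over the members and -0.01 over all genes. Groups did not overlap for 3 members above and 5 below the controls, where the background was 19.8% of genes, 13.2% above and 6.61% below. In AIH against asymptomatic livers 7 members rose and 6 fell, 33.3% beside a background of 29.8% (19.1% higher, 10.7% lower), with a median of -0.17 against -0.03. The ranges lay apart for 5 members above and 2 below, beside 16.9% of genes, 12.3% above and 4.65% below. Between asymptomatic and control livers no member was called by edgeR, and the background was 0.0% of genes.

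The AIH group differs in its mix of sexes from the groups it is compared with. With sex as a term, Abcc1 and Abcg1 were the only members still called between AIH and asymptomatic livers, and with the share of unaligned reads as a term Abcc1 was the only one. The calls over all genes in that comparison went from 4355 to 1372 with sex as a term. They went to 562 with the unaligned share as a term. No asymptomatic mouse is female and only AIH 4 of the AIH mice is male. Sex and disease state can therefore hardly be told apart in that comparison, and a call that ended with sex as a term is not thereby shown to reflect sex. With that term the log2 fold change was 0.91 for Abcc5 (1.28 without it), -0.61 for Abce1 (-0.82) and -0.15 for Abcg2 (-1.04). Among females, 4 AIH against 2 control livers, Abcc3 and Abcd2 were called lower and Abca13 higher, among 839 genes called. Abca13 had no read in either female control. It passed the filter of that fit only through the AIH livers, so its call is no support of its own. Scaled by library totals alone, the median of all genes in AIH against control moved from -0.01 to 0.14 and the members' calls to 6 higher and 3 lower, and in AIH against asymptomatic from -0.03 to 0.17 and 7 higher and 1 lower.

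**Figure D1:**
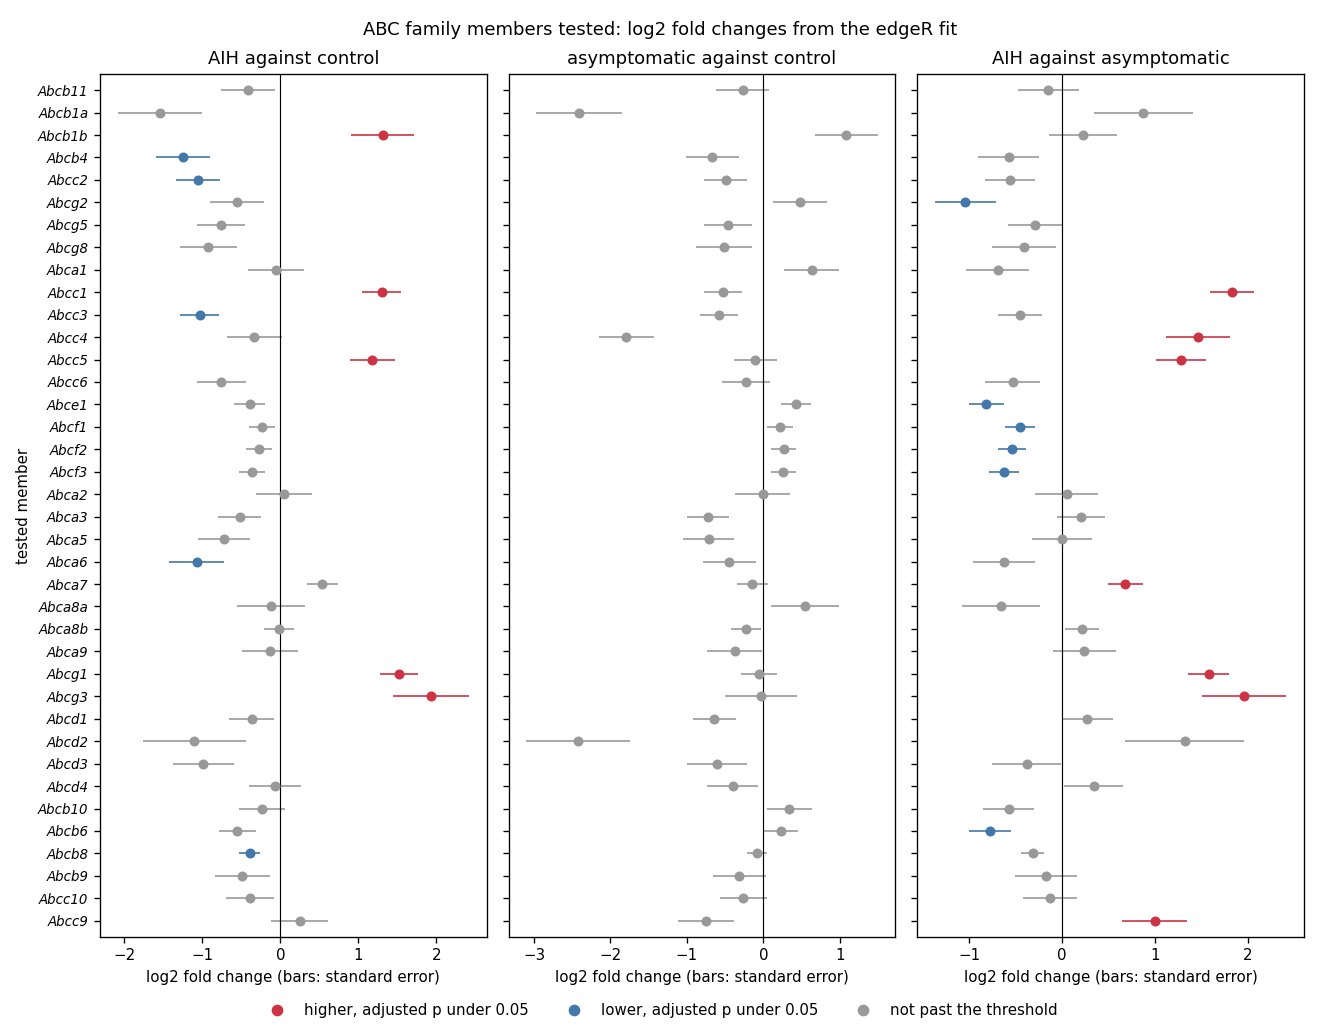
Log2 fold change with its standard error for tested members in the 3 comparisons, grouped by role, red points being called higher, blue lower and grey neither at an adjusted p under 0.05. Abcg3, Abcg1, Abcc1 and Abcc5 are red in both comparisons with AIH, 7 of the 8 canalicular members lie to the left of 0 in AIH against control, and the middle panel, asymptomatic against control, is all grey.

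Of the 8 canalicular exporters 2, Abcc2 and Abcb4, fell in AIH against control livers, beside 6.08% of all genes. Abcb1b rose, beside 15.6% of all genes, and the other 5 did not pass. The median log2 fold change of the 8 was -0.84.

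Abcc2 exports conjugated bilirubin and glutathione conjugates into bile and lies at chr19:43782192-43840740 (GRCm38, as are all gene positions here, from GENCODE M21). It stood at 835, 539.6, 835 and 527 CPM in the controls, at 573, 614, 502, 402 and 338 CPM in the asymptomatic livers and at 294, 176, 276, 479 and 422 CPM in the AIH livers. Every AIH liver lay below every control, and the asymptomatic livers spread across both ranges. The fall was to 0.481 of the control level (log2 fold change -1.05 ± 0.28, adjusted p = 0.0147). Against the asymptomatic livers the log2 fold change was -0.56 and did not pass (adjusted p = 0.124).

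Abcb4, at chr5:8893717-8959231, moves phosphatidylcholine to the outer face of the canalicular membrane, from where it protects the duct from bile salts. Its counts stood at 279, 573, 259 and 618 CPM in the controls, at 198, 519, 201, 252 and 187 CPM in the asymptomatic livers and at 217, 126, 178, 239 and 152 CPM in the AIH livers. No AIH liver reached the lowest control, but the controls themselves split into 2 low livers (controls 1 and 3) and 2 high ones (controls 2 and 4). It fell to 0.422 of the control level (log2 fold change -1.24 ± 0.35, adjusted p = 0.0196). The call ended without control 2, control 4 or AIH 2 (adjusted p = 0.0534, 0.0602 and 0.0521). Dbp and Arntl are clock genes that peak at opposite times of day, and within each group their ratio was lowest in the livers with the highest Abcb4. On the log2 scale the ratio of Dbp to Arntl was -4.59 in control 2 and -2.88 in control 4, 1.42 in asymptomatic 2 and -1.87 in AIH 4. Those 4 livers held the highest Abcb4 levels of their groups. The ratio ranged from 2.64 to 7.69 in the remaining 10. Among those 10 the order was not kept throughout. Asymptomatic 5 had the lowest Abcb4 of its group, 187 CPM, beside a ratio of 4.72, below those of asymptomatic 1, 3 and 4. The hour of collection is not in the labels, and its part in the Abcb4 result was not tested.

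Abcb11, the bile salt export pump, had the highest level per kilobase of exon among the canalicular members in the controls. It stood at 623, 541, 770.5 and 475 CPM in the controls, at 517, 478, 515, 505 and 487 CPM in the asymptomatic livers and at 348, 269, 175, 819 and 645 CPM in the AIH livers. The AIH range enclosed the control range on both sides, AIH 3 being lowest and AIH 4 highest. The difference between AIH and control did not pass (log2 fold change -0.42 ± 0.34, adjusted p = 0.425), nor did that between AIH and asymptomatic livers (log2 fold change -0.15 ± 0.33, adjusted p = 0.757).

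**Figure D2:**
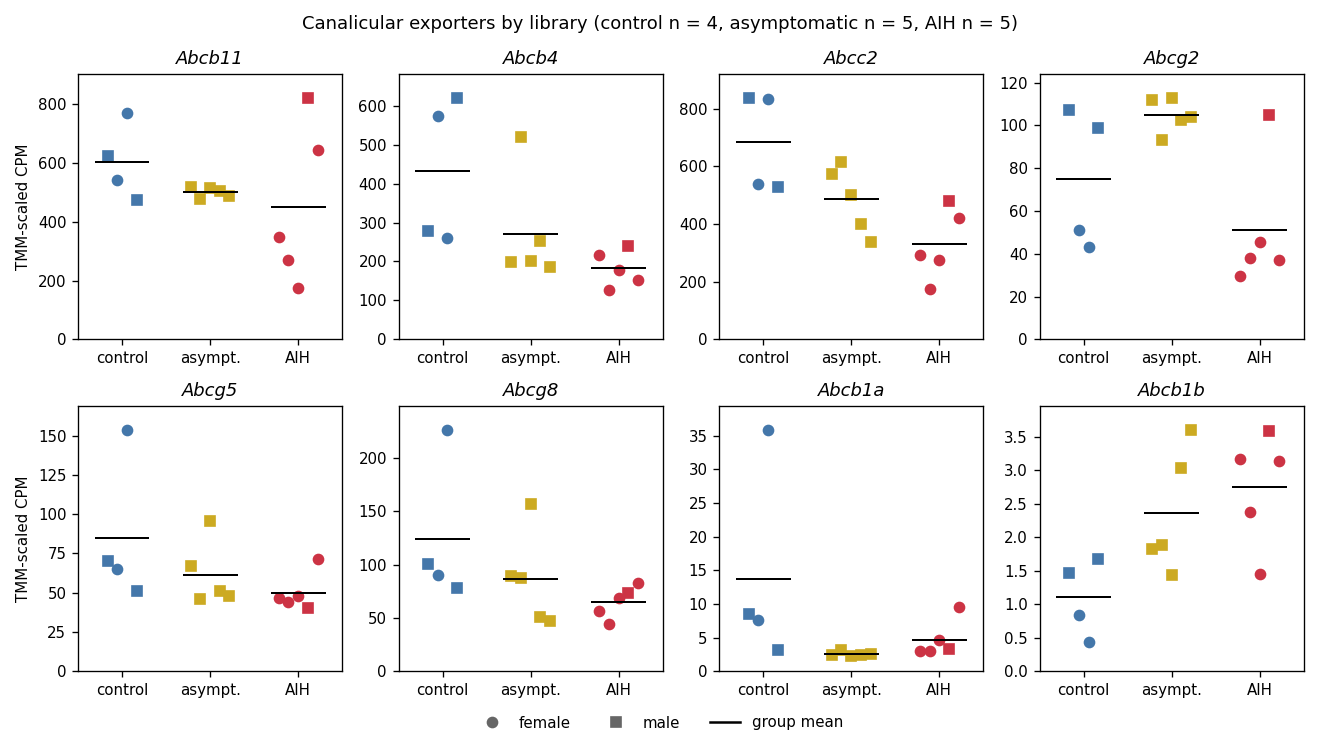
CPM of the 8 canalicular exporters in each liver (vertical axes linear from 0), controls blue, asymptomatic yellow and AIH red, circles female and squares male, black lines group means. Abcc2 and Abcb4 lie below the controls in all 5 AIH livers, and Abcg2 separates squares from circles.

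Abcg5 and Abcg8 form the obligate heterodimer that secretes cholesterol and plant sterols into bile, and lie on opposite strands, at chr17:84658234-84683011 and chr17:84676302-84700333. The interval printed above lies between their RefSeq start sites, while the GENCODE extents of the genes overlap, that of Abcg8 starting inside Abcg5. Abcg5 stood at 69.9, 65.0, 153 and 51.0 CPM in the controls, at 67.1, 45.9, 95.5, 51.1 and 48.1 CPM in the asymptomatic livers and at 46.8, 44.2, 47.9, 40.4 and 71.6 CPM in the AIH livers. Abcg8 stood at 100.2, 90.5, 226 and 77.7 CPM in the controls, at 89.5, 87.0, 156, 51.0 and 47.4 CPM in the asymptomatic livers and at 56.3, 44.0, 69.0, 73.2 and 82.6 CPM in the AIH livers. Control 3 was the highest liver for both and AIH overlapped the controls in both. Neither passed in AIH against control (Abcg5 log2 fold change -0.76 ± 0.31, adjusted p = 0.0954, and Abcg8 log2 fold change -0.93 ± 0.37, adjusted p = 0.0861). Abcg5 passed with sex as a term (adjusted p = 0.0450) and Abcg8 with DESeq2 (adjusted p = 0.0458). The ratio of Abcg8 to Abcg5 CPM lay between 0.985 and 1.89 over the 14 livers. Only 82 exon bases of the pair overlap, on opposite strands.

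**Figure D3:**
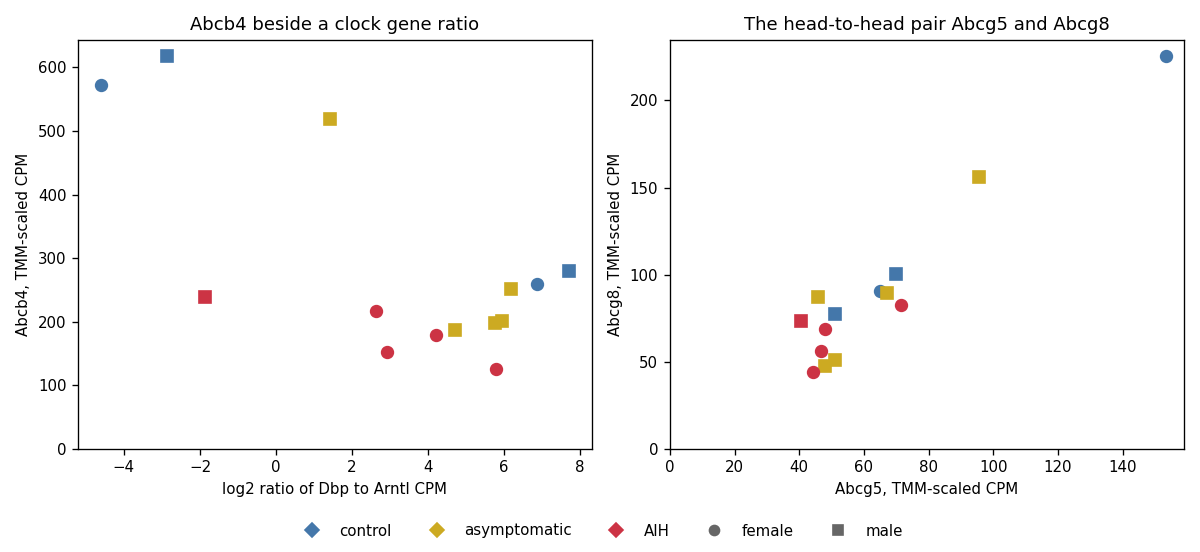
Left, Abcb4 CPM against the log2 ratio of Dbp to Arntl; right, Abcg8 CPM against Abcg5 CPM, both on linear axes, 1 point per liver with the colours and shapes of the plot of canalicular exporters. Control 2, control 4 and asymptomatic 2 stand above all other livers for Abcb4, at 573, 618 and 519 CPM, and control 3 and asymptomatic 3 are the highest for both sterol genes.

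Abcg2, a pump for urate, sulfated steroids and drugs, differed by sex. It stood at 107, 50.9, 43.2 and 99.0 CPM in the controls, at 112, 93.2, 113, 103 and 104 CPM in the asymptomatic livers and at 29.5, 38.0, 45.5, 105 and 37.2 CPM in the AIH livers. The male livers of all groups lay between 93.2 and 113 CPM and the female livers between 29.5 and 50.9. The call against the asymptomatic livers (log2 fold change -1.04 ± 0.33, adjusted p = 0.0282) compares 4 female and 1 male mouse with 5 males. With sex as a term the log2 fold change was -0.15 (adjusted p = 0.663), and among males it was -0.009, resting on AIH 4 alone. Without AIH 4, Abcg2 was also called lower than in the controls (log2 fold change -0.99, adjusted p = 0.0129). The call against asymptomatic livers ended without asymptomatic 1, AIH 1, AIH 2, AIH 3 or AIH 5 (adjusted p = 0.0562, 0.0681, 0.0684, 0.0585 and 0.0655).

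Abcb1a and Abcb1b encode the 2 mouse P-glycoproteins, broad exporters of drugs and lipids, and lie with Abcb4 in one cluster on chromosome 5 (Abcb1a at chr5:8660077-8748575, Abcb1b at chr5:8798147-8866315). Abcb1b rose from a low level, standing at 1.46, 0.848, 0.436 and 1.68 CPM in the controls, at 1.82, 1.88, 1.44, 3.04 and 3.59 CPM in the asymptomatic livers and at 3.17, 2.38, 1.46, 3.58 and 3.13 CPM in the AIH livers. AIH 3 lay within the control range and the other 4 AIH livers above it. The rise (log2 fold change 1.31 ± 0.41, adjusted p = 0.0330) ended without control 2, control 3, AIH 1, AIH 4 or AIH 5 (adjusted p = 0.0974, 0.0819, 0.0621, 0.0563 and 0.0561), and also with no count filter (adjusted p = 0.0556) and with only the 2 groups compared (adjusted p = 0.0527). Abcb1a stood at 8.53, 7.63, 35.8 and 3.18 CPM in the controls, at 2.47, 3.18, 2.26, 2.46 and 2.53 CPM in the asymptomatic livers and at 2.98, 3.06, 4.66, 3.36 and 9.60 CPM in the AIH livers. Control 3 alone held 35.8 CPM, and every asymptomatic liver lay below every control, asymptomatic 2 by less than 0.01 CPM. In AIH against control Abcb1a did not pass (log2 fold change -1.54 ± 0.54, adjusted p = 0.0553), though it did with sex as a term (log2 fold change -1.68, adjusted p = 0.0247), with DESeq2 (adjusted p = 0.0181), without control 4 (adjusted p = 0.0188) and without AIH 5 (adjusted p = 0.0214). The ratio of Abcb1a to Abcb1b ran from 0.704 to 82.1, the latter in control 3. Of the 50-base stretches in their transcripts, 18.6% of Abcb1a's and 19.6% of Abcb1b's also occur in the other or in Abcb4, so the authors' counting may have left part of their reads out. Abcb1b, Abcb1a and Abcb4 are neighbours in that cluster, and in AIH against control livers 1 rose, 1 did not pass and 1 fell.

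Among the 6 basolateral exporters, AIH livers held less Abcc3 and more Abcc1 and Abcc5 than controls, and more Abcc1, Abcc4 and Abcc5 than asymptomatic livers. Beside that, 15.6% of all genes rose and 6.08% fell against control, and 19.1% rose and 10.7% fell against asymptomatic livers. Abca1 and Abcc6 did not pass in either comparison.

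Abcc3 (chr11:94343295-94392997), which returns bilirubin and bile acid conjugates to the blood, stood at 396, 442, 377 and 344 CPM in the controls, at 259, 382, 304, 196 and 167 CPM in the asymptomatic livers and at 149, 143, 168, 284 and 208 CPM in the AIH livers. It is the basolateral member with the highest level per length, and all AIH livers lay under the lowest control. The fall was to 0.489 of the control level (log2 fold change -1.03 ± 0.25, adjusted p = 0.00900), and it passed in each of the 9 fits that left out 1 library and in the other 9 settings tried. Among females alone the log2 fold change was -1.31 (adjusted p = 0.0293). Against asymptomatic livers it was -0.46 (adjusted p = 0.162), and without AIH 4 that difference passed too (log2 fold change -0.64, adjusted p = 0.0454).

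Abcc4 (chr14:118482692-118706219), an exporter of bile acids with glutathione, cyclic nucleotides and prostaglandins, stood at 6.84, 12.04, 21.2 and 5.08 CPM in the controls, at 2.41, 4.47, 2.57, 3.68 and 3.13 CPM in the asymptomatic livers and at 7.68, 8.02, 6.64, 10.97 and 11.6 CPM in the AIH livers. All asymptomatic livers lay below all controls and all AIH livers. The AIH livers lay within the control range. Abcc4 rose in AIH against asymptomatic livers to 2.76 times the level (log2 fold change 1.46 ± 0.34, adjusted p = 0.00550), while asymptomatic against control it did not pass in edgeR (log2 fold change -1.79 ± 0.36, adjusted p = 0.308) and did in DESeq2 (adjusted p = 0.00107). Among controls the 2 females held 12.04 and 21.2 CPM and the 2 males 6.84 and 5.08, and the asymptomatic mice were all male. With sex as a term the difference between AIH and asymptomatic was 1.05 (adjusted p = 0.120). Within males it was 1.74, resting on AIH 4 alone, the single AIH male, whose group has no spread of its own.

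Abcc1 (chr16:14361558-14475737), an exporter of leukotriene C4 and glutathione conjugates found in most cell types and scarce in resting hepatocytes, stood at 3.27, 3.22, 4.68 and 3.13 CPM in the controls, at 1.76, 3.41, 1.76, 3.30 and 2.13 CPM in the asymptomatic livers and at 6.82, 8.99, 8.28, 9.34 and 10.6 CPM in the AIH livers. Each AIH liver exceeded each of the other 9. It rose to 2.46 times the control (log2 fold change 1.30 ± 0.25, adjusted p = 0.00198) and to 3.56 times the asymptomatic level (log2 fold change 1.83 ± 0.24, adjusted p = 6.94e-05). The latter passed with sex as a term, with the unaligned share as a term and in all 10 fits without 1 library. Within males it was 1.90 on the log2 scale, resting on AIH 4 alone. Among females, in AIH against control, it was 1.11 and did not pass (adjusted p = 0.0892).

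Abcc5, a cyclic nucleotide and folate exporter, stood at 2.75, 4.07, 5.72 and 3.97 CPM in the controls, at 3.45, 5.71, 2.45, 3.49 and 4.12 CPM in the asymptomatic livers and at 7.83, 7.87, 8.68, 7.67 and 14.7 CPM in the AIH livers. AIH 5 was the highest, and no AIH liver overlapped another group. It rose against controls (log2 fold change 1.18 ± 0.29, adjusted p = 0.00941) and asymptomatic livers (log2 fold change 1.28 ± 0.27, adjusted p = 0.00282). Abca1, which hands cholesterol to apolipoprotein A-I, stood at 241, 214, 192 and 173 CPM in the controls, at 277, 210.2, 152, 434 and 517 CPM in the asymptomatic livers and at 155, 87.4, 280.0, 248 and 213 CPM in the AIH livers. Asymptomatic 4 and 5 were the highest, and the groups overlapped. Abcc6, the transporter lost in pseudoxanthoma elasticum, stood at 149, 112, 243 and 94.9 CPM in the controls, at 176, 105, 142, 113 and 104 CPM in the asymptomatic livers and at 76.5, 63.3, 53.6, 109 and 140.3 CPM in the AIH livers. AIH 1, 2 and 3 lay below every other liver, and Abcc6 passed as lower against control only without AIH 5 (log2 fold change -0.98, adjusted p = 0.0345).

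**Figure D4:**
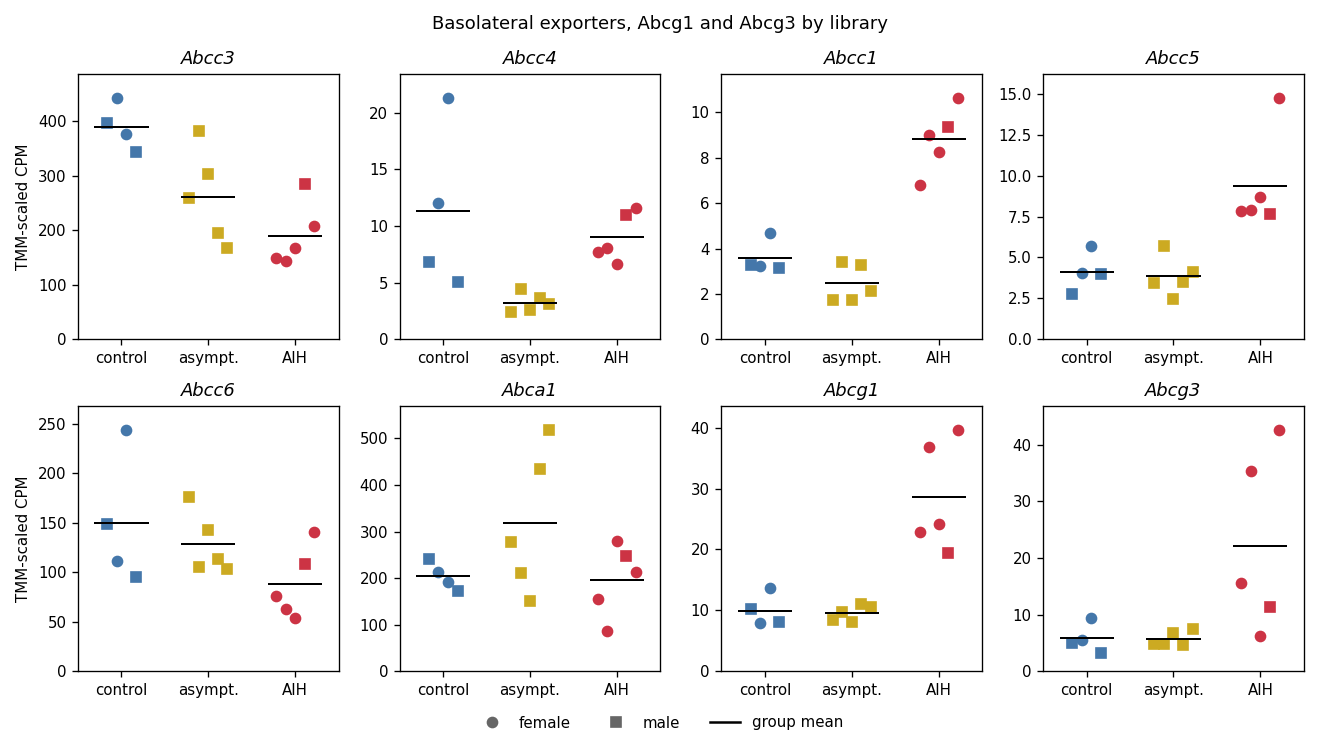
CPM (linear axes from 0) of the 6 basolateral exporters and of Abcg1 and Abcg3 in each liver, with colours and shapes as in the plot of canalicular exporters. Abcc1, Abcc5 and Abcg1 of the 5 AIH livers lie above all other livers, Abcc3 lies below the controls, and Abcc4 is lowest in the asymptomatic livers.

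Of the 18 other members of subfamilies A and G, 10 were tested, and Abcg1 and Abcg3 rose while Abca6 fell in AIH against control. Beside that, 15.6% of all genes rose and 6.08% fell. Abcg1 (chr17:31057675-31117988), which loads cholesterol onto HDL and is abundant in macrophages, stood at 10.3, 7.86, 13.7 and 8.10 CPM in the controls, at 8.45, 9.82, 8.03, 11.1 and 10.5 CPM in the asymptomatic livers and at 22.9, 36.9, 24.2, 19.5 and 39.5 CPM in the AIH livers. The lowest AIH liver exceeded the highest of the other 9. It rose to 2.87 times the control (log2 fold change 1.52 ± 0.24, adjusted p = 0.000476) and 2.98 times the asymptomatic level (log2 fold change 1.58 ± 0.22, adjusted p = 0.00014). The difference from the asymptomatic livers passed with sex as a term and ended with the unaligned share as a term (log2 fold change 1.27, adjusted p = 0.102). Abcg3, a rodent relative of Abcg2, stood at 5.08, 5.60, 9.37 and 3.24 CPM in the controls, at 4.75, 4.82, 6.84, 4.59 and 7.52 CPM in the asymptomatic livers and at 15.6, 35.3, 6.24, 11.4 and 42.5 CPM in the AIH livers. AIH 3 lay within the control range and AIH 2 and AIH 5 far above it. It rose against controls (log2 fold change 1.93 ± 0.49, adjusted p = 0.0111) and asymptomatic livers (log2 fold change 1.96 ± 0.45, adjusted p = 0.00491).

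Abca6 (chr11:110176820-110251776) belongs to a row of 5 subfamily A genes on chromosome 11, Abca8b, Abca8a, Abca9, Abca6 and Abca5. It stood at 364, 377, 318 and 331 CPM in the controls, at 216, 418, 205, 208 and 229 CPM in the asymptomatic livers and at 214, 48.8, 130.4, 231 and 204 CPM in the AIH livers. All AIH livers lay below all controls, AIH 2 by the most, and asymptomatic 2 was the single asymptomatic liver not below the controls. The fall (log2 fold change -1.07 ± 0.35, adjusted p = 0.0412) ended without control 1, control 2, control 3, control 4 or AIH 3 (adjusted p = 0.0737, 0.0755, 0.0584, 0.0631 and 0.0928). It also ended with sex as a term (adjusted p = 0.0699), with library totals alone (adjusted p = 0.0816) and with only the 2 groups compared (adjusted p = 0.0692). None of its 4 neighbours passed in any of the comparisons in the edgeR fit of all 14 libraries with no further term. Abca7, a lipid exporter linked to phagocytosis, rose in AIH against asymptomatic livers (log2 fold change 0.68 ± 0.19, adjusted p = 0.0146) from 6.78 ± 1.04 to 10.9 ± 2.41 CPM (mean ± SD, n = 5 each). It stood at 6.43, 7.18, 6.59 and 9.72 CPM in the controls, at 7.67, 7.71, 5.21, 6.92 and 6.39 CPM in the asymptomatic livers and at 9.65, 14.1, 8.45, 9.40 and 12.8 CPM in the AIH livers. Every AIH liver exceeded every asymptomatic liver, while control 4 lay among the AIH livers. The difference from control (log2 fold change 0.54 ± 0.20, adjusted p = 0.0701) passed in 3 of the alternatives, without control 4 (adjusted p = 0.0480), without AIH 3 (adjusted p = 0.0499) and when scaled by library totals alone (adjusted p = 0.0428).

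Abcb8, a transporter of the mitochondrial inner membrane, fell in AIH against control to 0.761 of the control level (log2 fold change -0.39 ± 0.13, adjusted p = 0.0434). Abcb8 stood at 35.0, 36.9, 39.9 and 28.8 CPM in the controls, at 34.9, 26.9, 38.9, 31.5 and 34.3 CPM in the asymptomatic livers and at 25.9, 26.5, 26.9, 25.5 and 28.8 CPM in the AIH livers. The AIH livers lay at the low end, and the highest of them and control 4 overlapped. The call ended without control 1, control 2, control 3, AIH 1, AIH 2, AIH 3 or AIH 4 (adjusted p = 0.0779, 0.0909, 0.117, 0.0900, 0.0766, 0.0720 and 0.0771). It also ended with library totals alone (adjusted p = 0.273), with no count filter (adjusted p = 0.0779), with only the 2 groups compared (adjusted p = 0.0543) and with the unaligned share as a term (adjusted p = 0.0680). Abcb6, a porphyrin transporter, fell in AIH against asymptomatic livers (log2 fold change -0.78 ± 0.22, adjusted p = 0.0174), but 55.2% of its exon bases lie within the same-strand transcript Gm29253 and 90.3% of its 50-base stretches are shared with it, so its count is uncertain. The call ended with library totals alone (adjusted p = 0.108). It stood at 5.67, 5.88, 6.32 and 5.03 CPM in the controls, at 6.57, 7.41, 7.97, 6.92 and 4.59 CPM in the asymptomatic livers and at 3.07, 5.35, 2.39, 4.20 and 4.50 CPM in the AIH livers, with the groups overlapping. Abcb10, a mitochondrial transporter needed for haem synthesis in red cells, and Abcb9, a lysosomal peptide transporter, did not pass in these comparisons.

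Subfamily D carries fatty acids into peroxisomes, apart from the lysosomal Abcd4. None of its 4 members passed in any comparison in the edgeR fit of all 14 libraries with no further term. At unadjusted p under 0.05, 1 was lower in AIH against control, beside 1934 of 14638 genes. In asymptomatic against control 2 were lower, beside 723 genes, and between AIH and asymptomatic livers 0 differed, beside 6058 genes. Abcd3 and Abcd2 are described here after their values were seen. Abcd3, which imports branched and dicarboxylic acids and bile acid intermediates, stood at 1311, 845, 615 and 1269 CPM in the controls, at 518, 1297, 565, 479 and 457 CPM in the asymptomatic livers and at 409.6, 253, 442, 960.2 and 483 CPM in the AIH livers. Asymptomatic 2 and AIH 4 lay apart from the rest of their groups, well above them. Against control the AIH value (log2 fold change -0.99 ± 0.39, adjusted p = 0.0867) passed without AIH 4 (log2 fold change -1.34, adjusted p = 0.0153) and with DESeq2 (adjusted p = 0.0418) and limma-voom with quality weights (adjusted p = 0.0200). Abcd2, a carrier of very long chain fatty acids, stood at 66.7, 148, 163 and 48.2 CPM in the controls, at 5.72, 56.7, 27.0, 5.36 and 4.26 CPM in the asymptomatic livers and at 56.9, 42.7, 57.2, 25.5 and 65.6 CPM in the AIH livers. The asymptomatic livers spread from 4.26 to 56.7 CPM. Abcd2 did not pass in AIH against control (log2 fold change -1.10 ± 0.66, adjusted p = 0.260), and did within females (log2 fold change -1.50, adjusted p = 0.0169) and with the unaligned share as a term (adjusted p = 0.0414). Nor did it pass against asymptomatic livers (log2 fold change 1.32 ± 0.64, adjusted p = 0.132). That value changed sign with the unaligned share as a term (-0.43, adjusted p = 0.845), and was 0.22 with sex as a term (adjusted p = 0.890). It passed without asymptomatic 2 (log2 fold change 2.22, adjusted p = 0.00960) and with limma-voom and quality weights (2.78, adjusted p = 0.00143).

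The 4 soluble ATPases have no membrane domain. All 4 fell in AIH against asymptomatic livers, beside 10.7% of all genes, while against control none was called by edgeR and 1, Abcf3, had an unadjusted p under 0.05. Abce1, which splits ribosomes after termination, stood at 110.1, 114, 76.8 and 114 CPM in the controls, at 136, 112, 99.0, 165 and 184 CPM in the asymptomatic livers and at 88.8, 64.7, 78.3, 92.7 and 70.3 CPM in the AIH livers. Every AIH liver lay below every asymptomatic liver, and control 3 alone among the controls lay in the AIH range. The fall was to 0.568 of the asymptomatic level (log2 fold change -0.82 ± 0.19, adjusted p = 0.00488). Abcf1, linked to translation initiation, and Abcf2 and Abcf3 fell to 0.729, 0.687 and 0.649 (adjusted p = 0.0456, 0.0169 and 0.00880). Abcf1 stood at 76.9, 80.4, 64.0 and 72.5 CPM in the controls, at 91.0, 64.7, 63.1, 102 and 107 CPM in the asymptomatic livers and at 71.4, 63.0, 60.1, 63.3 and 54.1 CPM in the AIH livers. Abcf2 stood at 37.1, 41.2, 31.8 and 41.6 CPM in the controls, at 48.9, 41.1, 35.5, 53.0 and 49.6 CPM in the asymptomatic livers and at 39.6, 32.2, 30.0, 31.6 and 23.4 CPM in the AIH livers. Abcf3 stood at 40.3, 50.5, 44.7 and 47.4 CPM in the controls, at 67.7, 44.1, 49.5, 58.2 and 54.9 CPM in the asymptomatic livers and at 41.0, 38.1, 23.8, 39.0 and 36.1 CPM in the AIH livers. AIH and asymptomatic livers overlapped for Abcf1 and Abcf2 and not for Abcf3, for which AIH 3 was the lowest. All 4 calls ended with sex as a term (adjusted p = 0.158 for Abce1, 0.288 for Abcf1, 0.208 for Abcf2 and 0.113 for Abcf3). With library totals alone Abcf1, Abcf2 and Abcf3 did not pass (adjusted p = 0.312, 0.160 and 0.119). The Abcf1 call also ended with only the 2 groups compared (adjusted p = 0.0814) and without asymptomatic 1, asymptomatic 4, asymptomatic 5, AIH 1, AIH 2, AIH 3, AIH 4 or AIH 5 (adjusted p = 0.0924, 0.114, 0.120, 0.0520, 0.0759, 0.0773, 0.0667 and 0.100). The asymptomatic livers other than asymptomatic 2 also held the largest shares of unaligned reads, from 7.80 to 9.27%, and with that share as a term the Abce1 difference was -0.36 on the log2 scale (adjusted p = 0.657).

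Abcc9 encodes the sulfonylurea receptor subunit of vascular potassium channels. It stood at 57.9, 67.5, 32.6 and 58.1 CPM in the controls, at 26.5, 67.2, 21.3, 23.7 and 22.1 CPM in the asymptomatic livers and at 77.0, 33.2, 90.6, 49.1 and 71.0 CPM in the AIH livers. Asymptomatic 2 lay with the controls and the other 4 asymptomatic livers below all of them. The rise in AIH against asymptomatic livers (log2 fold change 0.995 ± 0.35, adjusted p = 0.0436) ended without asymptomatic 1, asymptomatic 3, asymptomatic 4, asymptomatic 5, AIH 1, AIH 3 or AIH 5 (adjusted p = 0.0950, 0.0896, 0.101, 0.100, 0.0833, 0.107 and 0.0755), and with only the 2 groups compared (adjusted p = 0.0660). Abcc10 did not pass in the comparisons.

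**Figure D5:**
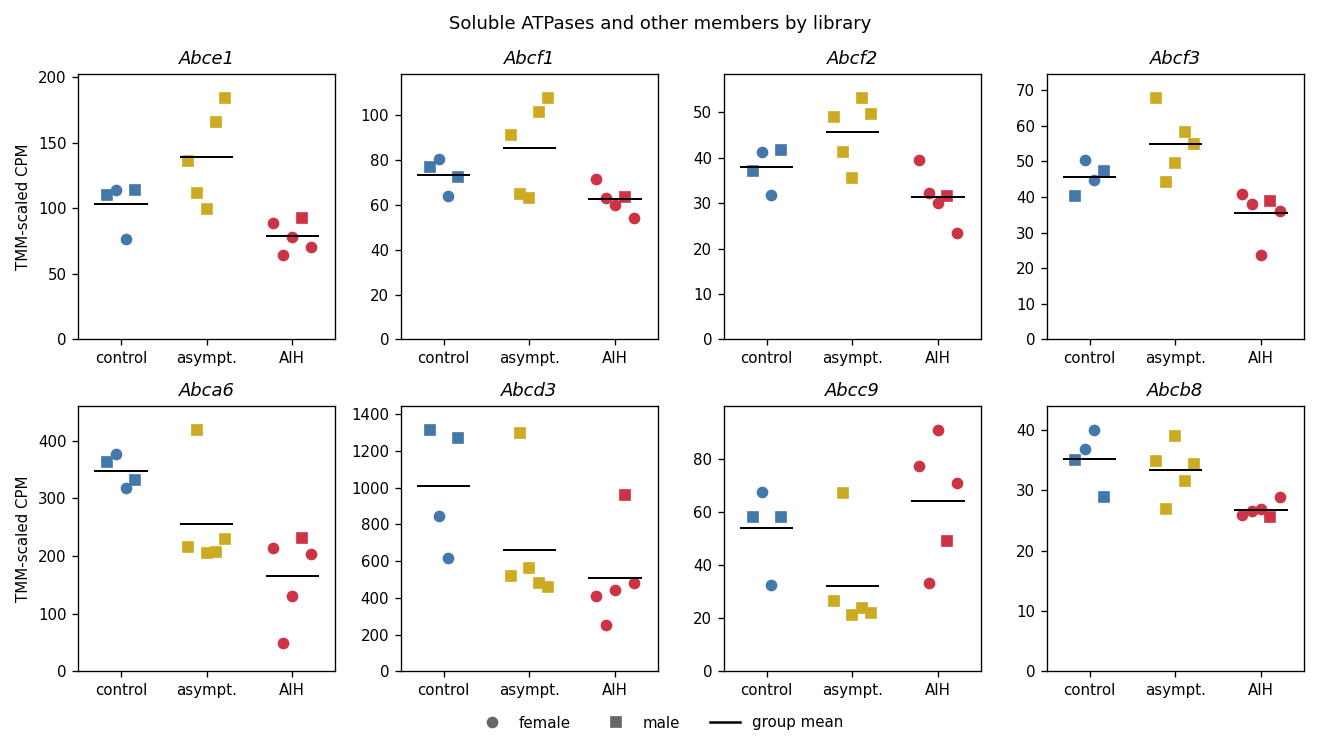
CPM (linear axes from 0) of the 4 soluble ATPases and of Abca6, Abcd3, Abcc9 and Abcb8 in each liver, with colours and shapes as in the plot of canalicular exporters. Abce1 in the 5 AIH livers lies below the asymptomatic livers, and asymptomatic 2 stands apart for Abca6, Abcd3 and Abcc9.

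The 11 members with too few reads were Abca4, Abca12, Abca13, Abca14, Abca15, Abca16, Abca17, Abcg4, Abcc8, Abcc12 and Abcb5, and 4 of them (Abca12, Abca16, Abcc8 and Abcb5) had no read in any library. Abca13 and Abcg4 are singled out after their values were seen. Abca13, the longest member, had 87 reads over the 5 AIH livers, 1 over the 4 controls and 0 over the 5 asymptomatic livers. Scaled to depth, that is a ratio of 64.2 to control (exact 95% interval 11.2 to 2566) and at least 23.8-fold more than in asymptomatic livers, taking 3 reads over the group as the limit that 0 reads allow. The 5 AIH livers held 25, 19, 33, 4 and 6 of the reads, and without any 1 of them the ratio to control was 48.5 to 75.3. Abcg4, an Abcg1 relative, had 81 reads in AIH, 2 in the controls (ratio 29.9, interval 8.02 to 251) and 6 in the asymptomatic livers (ratio 11.1, interval 4.87 to 31.0). Of the 81 reads, AIH 2 held 38 and AIH 5 held 33, and AIH 1, 3 and 4 held 9, 1 and 0. Without AIH 2 the ratios were 20.2 to control and 7.47 to asymptomatic livers, and without AIH 5 they were 22.3 and 8.25. The Abcg4 ratios thus rest largely on AIH 2 and AIH 5. These intervals cover counting error only and treat a group's libraries as pooled.

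Between asymptomatic and control livers, no member was called higher or lower by edgeR. At unadjusted p under 0.05, 9 of 39 members differed, 7 of them lower, beside 1542 of 14638 genes, of which 723 were lower. The ranges lay apart for Abcc4 and Abcb1a, both below the controls, beside 2.43% of all genes, 1.15% below. DESeq2 called those 2 members lower among 118 genes of the table, and limma-voom with quality weights called 6 lower (Abca5, Abcc3, Abcc9, Abcc4, Abcb4 and Abcd2) among 1299. In the male livers alone the log2 fold change of Abcb1a was -1.19 and that of Abcc4 -0.88, neither of which passed (adjusted p = 0.752 for both).

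The 3 ABC genes Tap1, Tap2 and Cftr have other symbols and stood outside the rule. Tap1 and Tap2 form the peptide pump that supplies MHC class I, and both rose in AIH. Tap1 went from 24.1 ± 1.89 CPM in the controls (SD, n = 4) to 56.8 ± 16.9 (SD, n = 5; log2 fold change 1.24 ± 0.19, adjusted p = 0.000446) and Tap2 from 25.9 to 54.1 CPM (log2 fold change 1.06 ± 0.23, adjusted p = 0.00392). Within females neither passed (adjusted p = 0.0767 and 0.171). Both also rose against asymptomatic livers (adjusted p = 0.000228 and 0.000961), and those calls ended with the unaligned share as a term (adjusted p = 0.0551 and 0.118). Cftr, the chloride channel of bile duct cells, was below 1 CPM on average in each group and was not called (AIH against control log2 fold change 0.71 ± 0.59, adjusted p = 0.430).

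Of 20 listed partners of the exporters in bile formation, 17 were tested, 8 fell in AIH against control and none rose, beside 6.08% of all genes lower and 15.6% higher. They included the basolateral uptake carriers Slco1b2 (log2 fold change -0.996, adjusted p = 0.00345) and Slc10a1 (-0.86, adjusted p = 0.00631), the apical trafficking motor Myo5b (-0.77, adjusted p = 0.00582), the copper pump Atp7b (-1.17, adjusted p = 0.0142) and the cation exporter Slc47a1 (-0.85, adjusted p = 0.0239). The median over the 17 was -0.53. The call of Slc47a1 ended without control 3, AIH 1, AIH 2 or AIH 3 (adjusted p = 0.0833, 0.0575, 0.0631 and 0.0589). With library totals alone or only the 2 groups compared it did not pass either (adjusted p = 0.0751 and 0.0543). Among females none of these 5 passed (adjusted p = 0.0854 for Slco1b2, 0.0906 for Slc10a1, 0.0593 for Myo5b, 0.0687 for Atp7b and 0.124 for Slc47a1). Against asymptomatic livers 3 of the 17 fell and none rose, beside 10.7% of all genes lower and 19.1% higher. Slc10a1 and Slco1b2 were among the 3, and both calls ended with sex as a term (adjusted p = 0.0672 and 0.136). They also ended with the unaligned share as a term (adjusted p = 0.0884 and 0.199).

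Of 22 listed regulators of these transporters, 21 were tested, 5 fell in AIH against control and none rose, with a median of -0.40. That is 23.8% called, all of them lower, beside 21.7% of all genes, of which 6.08% were lower and 15.6% higher. Ppara, the fatty acid receptor that also acts on Abcb4, fell (log2 fold change -1.51, adjusted p = 0.00501). Rxra, the partner of many nuclear receptors (-0.53, adjusted p = 0.0232), the bile acid receptor Nr1h4 (-0.57, adjusted p = 0.0240), Nr5a2 (-0.71, adjusted p = 0.0241) and the xenobiotic receptor Nr1i3 (-1.32, adjusted p = 0.0347) also fell. The Ppara call held in each fit without 1 library and ended within females (adjusted p = 0.129). The Rxra call ended without control 2 or AIH 2 (adjusted p = 0.0670 and 0.0589), that of Nr1h4 without control 1 or AIH 2 (adjusted p = 0.0634 and 0.0530), that of Nr5a2 without control 3, AIH 2 or AIH 3 (adjusted p = 0.0524, 0.0609 and 0.0557) and that of Nr1i3 without control 2, control 3 or AIH 3 (adjusted p = 0.0765, 0.120 and 0.0795). These 4 calls also ended with library totals alone (adjusted p = 0.113, 0.143, 0.106 and 0.0883) and within females (adjusted p = 0.227, 0.357, 0.140 and 0.0502). With only the 2 groups compared, Nr1h4 and Nr1i3 did not pass (adjusted p = 0.0569 and 0.0784). Against asymptomatic livers 7 of the 21 fell and 1 rose, beside 10.7% of all genes lower and 19.1% higher. Ppara, Rxra and Nr1h4 were among the 7, and their calls ended with sex as a term (adjusted p = 0.178, 0.0632 and 0.0673). With the unaligned share as a term Ppara and Rxra did not pass (adjusted p = 0.245 and 0.147) and Nr1h4 did. Nr1i3 did not pass against asymptomatic livers, but was called lower with sex as a term (log2 fold change -2.01, adjusted p = 0.00404).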

How the data were processed

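Total RNA libraries from the left liver lobe of 14 mice were analysed from read counts per gene, as deposited by the authors, 1 table per library. The submitters' processing notes name HISAT2 2.1.0 and HTSeq 0.9.0 beside cutadapt 1.12 and FastQC 0.11.5, and the builds GRCm38 and GRCh38. The annotation release and strand setting are not given in the sources used here. Reads of a gene and of its antisense partner therefore cannot be told apart. The 5 summary rows that name no gene stayed out of library sizes. They show that 28.8 to 37.0% of reads aligned to more than 1 place and 1.38 to 3.05% overlapped more than 1 gene.

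Gene identifiers were matched to GENCODE M21 (51719 of 51912). One edgeR 4.0.16 fit (R 4.3.3, TMM factors, filterByExpr, 1 mean per group, quasi-likelihood F test) covered all 14 libraries and 14638 genes, with Benjamini-Hochberg adjustment over all of them. Values in CPM use TMM-adjusted library sizes. Errors of log2 fold changes are standard errors. Alternatives were RLE factors, library totals, no count filter, DESeq2 1.42.0, limma-voom 3.58.1 with quality weights, the 2 groups alone, sex or unaligned share as a term, single sexes, and leaving out each library. Single males in AIH against asymptomatic were added after the data were seen. The labels do not say how sampling was arranged beyond 1 library per mouse, so p-values measure the spread between these animals.

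Tested on simulated data for AIH against control (13824 genes), the fit recovered 28 of 96 genes changed 2-fold and 80 of 93 changed 4-fold, and called 8 of 13635 unchanged ones. For asymptomatic against control (13857 genes) it recovered 27 of 92 and 79 of 97, and for AIH against asymptomatic (13891 genes) 32 of 93 and 88 of 95. Each simulation changed 200 genes, evenly up and down. In the data, 3174 genes were called in AIH against control, 2284 of them higher. The recovered shares describe the simulated setting and need not hold for the data.

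The members, their roles and the lists of partners, regulators and markers were chosen with earlier results of these data known. Genes are named by rule: the canalicular and basolateral exporters, every member called in a comparison, Tap1, Tap2 and Cftr, and the 5 partners and 5 regulators with the smallest p in AIH against control. Others are said to be chosen after their values were seen. The values of 1 member are not reported here.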

Additional observations from a re-analysis of the deposited data

Results flagged for a closer look

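A value is listed here when the gap between the highest or lowest liver of a group and its nearest neighbour, divided by the group's range, was above Dixon's 95% critical value. Of 93 groups of 4 or 5 livers examined, 13 met that. Independent, normally distributed values would give about 1 in 20. Here CPM were not on a log scale, some groups mix sexes and several members share the same outlying liver. The 13 can therefore not be read as an excess over that rate.

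Asymptomatic 2 was high for 4 members: Abca6 at 417.7 CPM (other asymptomatic livers 205 to 229), Abcb4 at 519 CPM (187 to 252), Abcc9 at 67.2 CPM (21.3 to 26.5) and Abcd3 at 1297 CPM (457 to 565). That library also had the smallest share of unaligned reads of its group, 4.93%, and the lowest ratio of Dbp to Arntl. The part of either in these values was not tested.

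Control 3, a female, was high for Abcb1a at 35.8 CPM (other controls 3.18 to 8.53), for Abcc1 at 4.68 CPM (3.13 to 3.27) and for Abcg8 at 225.5 CPM (77.7 to 100.2), and low for Abce1 at 76.8 CPM (110.1 to 113.8).

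AIH 5 was high for Abcb1a at 9.60 CPM (other AIH livers 2.98 to 4.66), for Abcc5 at 14.7 CPM (7.67 to 8.68) and for Abcg5 at 71.6 CPM (40.4 to 47.9). AIH 4, the male of its group, held Abcg2 at 104.9 CPM (29.5 to 45.5 in the 4 females). AIH 3 was low for Abcf3 at 23.8 CPM (36.1 to 41.0).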

How the results depend on the processing

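In AIH against control, the 5 members called higher became 4 to 7 when 1 library was left out. Within females 1 was called higher, Abca13, which was not among the 5. The 6 called lower became 3 with library totals alone, 3 with only the 2 groups compared, 2 within females, and 2 to 9 when 1 library was left out (3 without control 1, 2 without control 2 and 3 without AIH 2). Between asymptomatic and control livers, where edgeR called none, DESeq2 called 2 lower and limma-voom with quality weights 6, and leaving out 1 library gave 0 to 0 in either direction. In AIH against asymptomatic, the 7 called higher became 2 with sex as a term, 1 with the unaligned share as a term, 2 within males (1 AIH liver) and 6 to 8 when 1 library was left out. The 6 called lower became 1 with library totals alone, 0 with sex as a term, 0 with the unaligned share as a term, 0 within males, 11 with limma-voom and quality weights, and 4 to 7 when 1 library was left out. The cause was not tested, except that single-sex comparisons hold fewer samples. Calls over all genes in AIH against asymptomatic went from 4355 to 1372 with sex as a term and to 562 with the unaligned share as a term. No called value changed direction in the alternatives run. Library totals raised the share of higher calls among all genes to 89.8% in AIH against control and 88.9% in AIH against asymptomatic. Over single genes, 1982 of the values recomputed kept direction and side of the threshold, 165 no longer passed, 41 newly passed and 63, none of them past the threshold, changed sign. The 1982 include many values that were not called to begin with and stayed so. The 165 all come from called values, so 165 beside 1982 is not the share of calls lost. Abcb1b rests on 8 to 66 reads per library. No paired analysis was possible because the labels give no replicate numbers that pair animals across groups.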
